A study of Canis lupus familiaris with 20 samples.

Results

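The response of 5 canine mammary cancer cell lines to co-culture with canine macrophages was described across all genes from 10 of the 20 two-colour Agilent arrays of the series. These are the arrays whose titles name a cancer line alone. One dye of each array labelled RNA of cancer cells sorted from a co-culture, and the other dye labelled RNA of the same line from a mono-culture. CMT-U27 came from a simple carcinoma, CMT-U309 from a spindle-cell mammary tumour and P114 from an anaplastic cancer, while CMT-W1 and CMT-W2 are adenocarcinoma lines. Every line had 2 arrays with the dyes exchanged, which hold the same pair of RNAs although the labels call them biological replicates, so a dye-swap pair was averaged and n is 5 lines. For the co-culture, cancer cells were stained with the orange tracker dye CMTMR, CD64+ monocytes sorted from the blood of healthy dogs were laid over them, and after at least 72 h the cells were trypsinised and sorted into stained cancer cells and unstained macrophages. Mono-cultured cells were washed and scraped without sorting, so the effect of the macrophages and that of trypsin and sorting cannot be told apart. Whether the mono-cultures on these arrays were stained was not given in the sources used here. The number of separate cultures and of blood donors behind each line was not given in the sources used here. The other 10 arrays compared the macrophages of the same co-cultures with mono-cultured macrophages and are used below only for comparison.

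Macrophages that settle in a tumour exchange signals with its cells. Chemokines draw monocytes from the blood and colony-stimulating factors keep them alive, while macrophages release interleukins, prostaglandins and proteases that act on cancer cells and vessels. In mammary tumours of dogs and women a high number of such macrophages is a known feature of aggressive disease. The comparison asks which genes of the cancer cells change when the macrophages are present.

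Values are given as log2 ratios, co-culture over mono-culture, so that positive values are higher after co-culture and 1 is a doubling. A gene was tested with limma where it was well above background in either culture on both arrays of at least 3 lines, which left 23115 of 38230 genes, and was called where the p-value adjusted by Benjamini-Hochberg was under 0.05. Between 51.0% and 96.3% of spots were well above background in the channel of the co-culture, and between 40.8% and 84.5% in that of the mono-culture. The CMT-U309 array with the co-culture in Cy5 stood apart, with 9870 spots that the scanner software marked as outliers against 6 to 1438 on the other cancer cell arrays. Marked spots were left out, so 2995 of the genes tested have no value for CMT-U309. Across 20031 genes, the arrays of one dye-swap pair correlated at 0.744 (CMT-W1) to 0.941 (CMT-U27), and the lines correlated with each other at 0.240 to 0.753. Only 707 of the genes tested could be given a symbol, so the named results cover a small share of the array.

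After co-culture, genes of inflammation, antigen presentation, phagocytic receptors and lysosomes were up-regulated in the sorted cancer cells. The myo-inositol transporter SLC5A3, the homeobox gene MSX2 and the organic anion transporter SLCO1B3 were among those down-regulated. In all, 1502 genes were up-regulated (6.5% of those tested) and 1607 were down-regulated (6.95%). Among the genes with a symbol these numbers were 104 (14.7%) and 45 (6.36%). Both shares are to be set beside the counts given for each gene list below. At least 3-fold on each array were 180 raised genes (0.779%) and 10 lowered genes (0.0433%), of which 33 and 1 had a symbol. Of the genes with a symbol that the study itself listed for the cancer cells, 41 could be tested, and 39 of these were up-regulated and 2 down-regulated. That list was chosen on these arrays and is not independent evidence. A further 65 raised and 43 lowered genes with a symbol were outside it.

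These counts depend on the processing more than the directions do. With normexp background correction and loess on the median signals in place of the processed ratios, 47 genes were raised and 10 lowered. Leaving out 1 line left 470 raised and 87 lowered genes without P114, 621 and 310 without CMT-U27, and 1227 and 1237 without CMT-W1. In all of these settings every named gene that had been called and could be tested kept its direction, although normexp kept the call of 11 of the 93.

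The largest mean ratio of a named gene was that of PTGS2, the inducible cyclooxygenase that starts prostaglandin synthesis. Its log2 ratio was 9.95 in CMT-U27, 3.95 in CMT-U309, 6.34 in P114, 7.93 in CMT-W1 and 7.67 in CMT-W2, a mean of 7.17 ± 2.21 (SD, n = 5 lines; limma, adjusted p = 0.00358). CMT-U309 was the lowest line and still lay far above equal expression. CTSS, the cathepsin S that trims the invariant chain of MHC class II, was among the most even, at 6.53, 5.28, 5.68, 5.32 and 6.81 in the same order of lines (mean 5.92 ± 0.70, limma adjusted p = 0.000366). The related collagen-degrading cathepsin CTSK stood at 6.65, 4.35, 4.95, 4.74 and 4.02 (mean 4.94 ± 1.02).

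CXCL8, the neutrophil-attracting chemokine once called IL-8, had ratios of 5.25, 4.33, 6.0, 5.37 and 7.06 (mean 5.60 ± 1.01, limma adjusted p = 0.000769). Its 4 probes agreed in direction and differed in size, from 5.52 to 7.67. The monocyte chemokine CCL2 stood at 4.83, 4.31, 4.55, 4.74 and 5.87, and CCL3 at 5.29, 4.18, 4.97, 5.74 and 6.0. In each of these chemokines the 5 lines lay within less than 3 log2 units of one another on the arrays, and no line stood apart. The study's qPCR was less even for CCL3, with almost no change in CMT-U309, a small rise in CMT-U27 and large rises in the other lines.

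Other genes at the top of the order were less even. CD163, a haemoglobin scavenger receptor by which macrophages are recognised, stood at 7.13, 5.88, 7.03, 2.11 and 7.28 (mean 5.89 ± 2.18, limma adjusted p = 0.00761). CMT-W1 was also the lowest line for CD80, a costimulatory ligand of T cells (6.62, 6.45, 5.47, 2.13 and 5.90). The same line was lowest for the cytokines IL1A (6.47, 5.76, 6.06, 2.36 and 5.61) and IL1B (7.75, 5.28, 3.59, 1.92 and 6.82). FCGR1A encodes CD64, the antigen by which the monocytes were sorted, and its ratios were 5.60, 4.30, 5.24, 5.54 and 6.68. C5AR1, the receptor of the complement fragment C5a, was also among the 12 highest with 6.97, 4.37, 4.15, 3.33 and 6.06. All 12 were raised in 5 of 5 lines. The other probe of CD163 had a lower mean of 4.47, and that of CD80 had 3.29 against 5.31 on the probe used. CD80 had mono-culture signal well above background on 1 array of 10, and IL1A and IL1B on 3, so the size of these ratios and the order of their lines are uncertain. The same holds for CD28 and CLIC2 (1 array), IL33 and ANPEP (2 arrays), and CCR1, IL12B, IL13RA2 and PSMB8 (3 arrays), which are described further on.

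**Figure D1:**
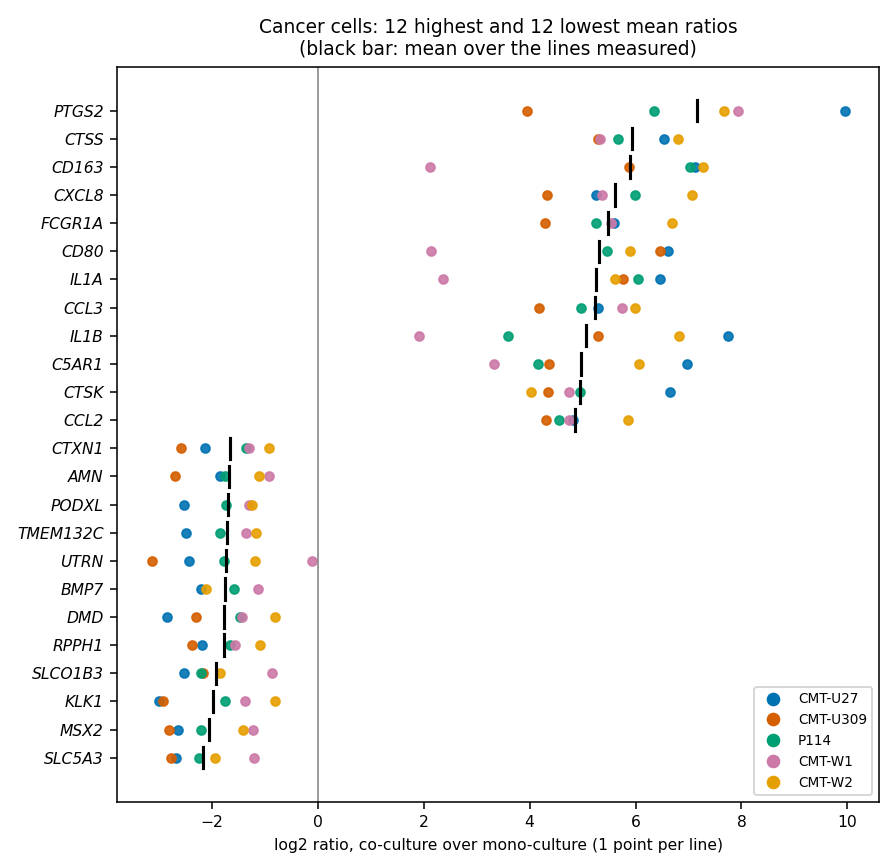
Log2 ratio, co-culture over mono-culture (x axis), for the 12 highest and the 12 lowest mean ratios among called genes with a symbol (y axis), with 1 point per cancer line and a black bar at the mean over the lines measured. The raised genes reach a mean of 7.17 for PTGS2, whereas the lowest mean is -2.17 for SLC5A3, and CMT-W1 lies apart on the low side for CD163, CD80 and IL1A.

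Genes by which macrophages are recognised moved with these results. Of 36 macrophage and monocyte markers listed, 10 could be named on the array, 9 were tested in the cancer cells (not CD209), and 7 were raised, among them FCGR1A, C5AR1, TYROBP, CD163, FCER1G and ADGRE1. CYBB (1.09 ± 1.40) and CD4 (0.38 ± 0.76) did not pass the threshold. The median ratio of the 9 was 2.82, against -0.03 for all genes tested. Their mean level, on the log2 scale of the processed signals after normalization between arrays, was 7.02 to 8.96 over the mono-cultured lines and 9.25 to 13.7 over the co-cultured lines. In mono-cultured macrophages it was 14.1 to 14.3, and in the macrophages sorted from the co-cultures 10.1 to 12.5. The summed signal of the 9 markers ran from 11.6 to 14.6 and from 13.4 to 18.1 in the cancer cells of the mono-cultures and co-cultures, and from 18.9 to 19.3 and from 15.4 to 17.3 in the macrophages. The ranges of the co-cultured cancer cells and of the macrophages of the same co-cultures overlapped. Each of the 9 was well above background on at least 4 of the 10 mono-culture arrays of the cancer cells. The part of macrophage RNA in the sorted cancer cells was not tested. The study checked the sorted cells by cytometry and fluorescence microscopy and describes them as close to pure. By confocal microscopy it also reports CD14 and CD64, the product of FCGR1A, in stained cancer cells after co-culture and not in mono-culture. It further reports stronger staining of the macrophage marker CSF1R, and higher CD163 and MMP9 by qPCR, in every cancer line after co-culture. Its qPCR of CCL3 differed more between lines, as given above. From these arrays alone, macrophages among the sorted cells, macrophage RNA carried by cancer cells and expression by the cancer cells themselves cannot be told apart.

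TYROBP, the ITAM adaptor of myeloid receptors, shows the pattern line by line. Its log2 level in the mono-cultured cancer lines was 14.18, 13.43, 10.54, 9.19 and 10.95, and in the same lines after co-culture 16.96, 14.86, 12.79, 12.07 and 14.32. Mono-cultured macrophages lay between 17.50 and 17.98. FCGR1A likewise stood at 10.21, 9.63, 7.4, 5.78 and 6.92 before and at 15.81, 13.93, 12.64, 11.32 and 13.60 after co-culture. CMT-U27 carried the highest and CMT-W1 the lowest level of both genes in either culture.

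The other marker lists had smaller medians. Of 5 lymphocyte markers tested, CD28 alone was raised (2.31 ± 1.71), and the list had a median of 0.38. CD28 was slightly below 0 in CMT-W1 (-0.11), and IL2RA had a higher mean (2.45) that did not pass. Of 4 granulocyte markers, S100A8 was raised (3.46 ± 0.73), a calcium-binding protein that monocytes also make, and CXCR2, CAMP and ELANE lay between -0.38 and 0.57. Among 5 epithelial markers, the tight junction gene CLDN3 was lowered (-1.65 ± 0.96, n = 4 lines) and the median was -0.60. The steroid receptor PGR (-0.06) and the growth factor receptor ERBB2 (-0.60) did not pass the threshold. PDGFRB, a receptor of mesenchymal cells, was lowered among 5 mesenchymal and endothelial markers (-1.25 ± 0.83), with its other probe at -0.33. As a check of the label, DSG3 and OCLN, of desmosomes and tight junctions, were compared between the populations. They had signal well above background on 6 of 10 arrays for the cancer lines in mono-culture and on 0 of 10 for the mono-cultured macrophages. After co-culture DSG3 was on 5 arrays of the cancer cells and 4 of the macrophages, and OCLN on 7 and 6, so both separated the mono-cultures only. In the mono-cultures CLDN3 and ERBB2 were on all 10 arrays of both populations, MUC1 on 7 and 9, and the milk protein gene CSN2 on 0 of both. Detection of these 4 therefore does not tell the populations apart. By log2 level, CLDN3 was higher in the mono-cultured cancer lines (11.86 to 14.08) than in mono-cultured macrophages (10.41 to 10.72), and after co-culture the ranges overlapped.

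Among the soluble signals, 6 of 11 chemokine ligands tested were raised and none was lowered (median 3.91). Besides CXCL8, CCL2 and CCL3 these were CCL4 (4.28 ± 0.69), CCL5 (3.99 ± 0.56) and CCL8 (3.91 ± 0.59), which attract monocytes and T cells. CCL7 (2.74 ± 2.42), CCL20 (2.53 ± 3.51) and CXCL10 (3.35 ± 3.24) had high means with a wide spread between lines and did not pass. Of 7 chemokine receptors 4 were raised, among them CCR1 (3.03 ± 0.95), CCR3 (2.14 ± 0.57) and the scavenging receptor ACKR3 (3.5 ± 1.29). CCR4 was lowered, by a smaller amount (-1.14 ± 0.41).

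Interleukins, colony-stimulating factors and ligands of the TNF family were raised for 8 of 19 tested, with a median of 1.49. IL6, the acute-phase cytokine, had ratios of 1.92 in CMT-U27, 4.13 in CMT-U309, 6.07 in P114, 4.88 in CMT-W1 and 4.86 in CMT-W2 (mean 4.37 ± 1.54, limma adjusted p = 0.00686). CSF2, which encodes GM-CSF, stood at 3.98, 1.99, 3.11, 5.57 and 5.67 (mean 4.06 ± 1.59, limma adjusted p = 0.0102). CMT-U27 was the lowest line for IL6 and CMT-U309 for CSF2, while CMT-W1 and CMT-W2 were high for both. The death ligand TNFSF10 (2.02 ± 0.60), IL12B (2.77 ± 1.43), IL33 (2.64 ± 1.66) and the lymphotoxin subunit LTB (2.31 ± 1.70) were also raised. The anti-inflammatory IL10 was lowered in 5 of 5 lines (-1.12 ± 0.48, limma adjusted p = 0.0281), and TNF did not pass the threshold (0.49 ± 0.34). Of 6 receptors, CD40 (4.38 ± 1.75, with its other probe at 2.56) and the decoy receptor IL13RA2 (3.76 ± 2.09) were raised. IL18BP, which binds and blocks IL-18, rose as well (2.0 ± 1.02).

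Of 7 interferon response genes tested, 3 were raised, with a median of 3.35. MX1, a GTPase that blocks viral replication, had ratios of 5.22, 4.37, 4.17, 3.86 and 6.51 (mean 4.83 ± 1.07, limma adjusted p = 0.00131). OAS1, an enzyme that senses double-stranded RNA, rose by 3.39 ± 1.17. IFNB1 itself, the gene of interferon beta, was not well above background on any mono-culture array, so that its change was at least 3.43-fold (measured ratios 2.31, 5.43, 1.93, 2.72 and 4.69). The related OAS2 was high in CMT-U27 and CMT-W1 (5.18 and 4.62) and near 0 in CMT-U309 (-0.47), and did not pass (2.65 ± 2.40).

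Antigen processing and presentation was the list with the largest share of raised genes among those of 5 or more members, with 13 of 16 raised, none lowered and a median of 2.82. DLA88, a class I gene of the dog leukocyte antigen region, had ratios of 4.24, 2.88, 3.13, 3.22 and 4.57 (mean 3.61 ± 0.75), and the class I gene DLA-64 rose by 3.26 ± 0.80. Class II genes included DLA-DRA (3.90 ± 1.33) and DLA-DQB1 (3.24 ± 1.26), and the peptide-loading factor DLA-DMA rose by 1.6 ± 0.63. Genes of this region are near-identical in stretches, so signal can be shared between them and single members are uncertain. PSMB8, a subunit of the immunoproteasome that cuts antigen peptides, rose by 4.84 ± 1.42, and its partner PSMB9 by 2.40 ± 1.32. The costimulatory ligand CD86 rose by 4.31 ± 1.29. DLA-DQA1 (0.92), TAPBP (1.14) and the lipid-presenting CD1C (-0.28) did not pass.

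Receptors that sense microbes were raised in part. TLR4, the receptor of bacterial endotoxin, had ratios of 3.09, 2.93, 3.89, 3.39 and 4.44 (mean 3.55 ± 0.62, limma adjusted p = 0.00113). TLR2 (4.64 ± 1.51) and TLR1 (2.35 ± 1.74), which pair to bind lipoproteins, were raised too. The endosomal receptors TLR7 (-0.10 ± 0.50) and TLR9 (0.15 ± 0.45) did not pass. All 4 Fc receptor and adaptor genes tested were raised, namely FCGR1A, TYROBP, FCER1G (2.82 ± 0.99) and the leukocyte receptor SLAMF1 (2.34 ± 0.92). The transcription factor subunit NFKB1 rose by 1.33 ± 0.74, and BIRC3, an apoptosis inhibitor in the same pathway, by 3.34 ± 1.5 (other probe 1.81).

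Lysosomal genes were raised for 11 of 19 tested, with a median of 1.47. Next to CTSS and CTSK, the proteases CTSC (3.09 ± 1.71), CTSA (2.32 ± 0.95, lowest probe 0.79) and CTSD (1.79 ± 0.95) were raised. So were NPC1 (2.18 ± 0.95) and NPC2 (2.34 ± 0.87), which carry cholesterol out of the lysosome, and the thioesterase PPT1 (2.72 ± 0.94). ATP6V0E1, a part of the proton pump, rose by 2.28 ± 0.65. Iron genes followed in part, with 3 of 7 raised. The ferritin chains FTH1 (6.63, 3.02, 1.52, 3.01 and 3.04) and FTL (4.56, 2.01, 1.12, 1.0 and 1.51) were strongest in CMT-U27, and the phagosomal metal transporter SLC11A1 rose by 3.13 ± 1.27.

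Of 5 genes of prostaglandin and leukotriene synthesis and reception, 3 were raised. PTGES, the prostaglandin E synthase that acts after PTGS2, had ratios of 3.31, 3.39, 3.21, 3.90 and 4.89 (mean 3.74 ± 0.70, limma adjusted p = 0.00117). PLA2G7, which degrades platelet-activating factor, rose by 3.60 ± 1.61. Extracellular proteases were raised for 2 of 7, the gelatinase MMP9 (3.35, 2.12, 2.24, 3.80 and 3.92) and the aminopeptidase ANPEP (3.25 ± 1.48). The plasminogen activator PLAU was high in CMT-U27 (4.56) and low in CMT-U309 (-2.05), and did not pass. The metalloproteinase inhibitor TIMP1 (-0.72 ± 1.27) did not pass either.

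Other raised genes included the ectoenzyme CD38 (6.58, 4.13, 4.80, 0.77 and 4.69, with the mean of its other probe at 1.62) and the inflammatory caspases CASP4 (3.18 ± 1.81) and CASP12 (2.88 ± 1.54). CMT-U27 was the strongest line for all 3. Smaller and more even changes were those of the protease inhibitor SERPINA1 (1.91 ± 0.40), the lectin LGALS9 (2.07 ± 0.69) and the adenosine receptor ADORA2A (2.48 ± 0.58). COX17, which carries copper to cytochrome oxidase, was the most even of the genes with a symbol raised at least 3-fold on each array, at 2.29, 2.35, 2.62, 2.74 and 1.91 (mean 2.38 ± 0.33, limma adjusted p = 0.00214). The p53 inhibitor MDM2 rose by 1.24 ± 0.54, as 1 of 2 raised among 15 genes of the p53 pathway and apoptosis, a share near that of all genes with a symbol.

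Genes that bring new proteins into the secretory pathway changed by less. Of 19 tested, 3 were raised and none was lowered, a share near the 14.7% raised among all genes with a symbol. SEC61B, a part of the channel of the endoplasmic reticulum, rose by 1.88 ± 1.05, SRP54, which binds signal peptides, by 1.25 ± 0.54, and the transport GTPase RAB1A by 1.04 ± 0.61. Among 18 ion channels and solute carriers, the chloride channel protein CLIC2 alone was raised (3.0 ± 2.14), and SLC5A3 alone was lowered. Of all genes with a symbol, 14.7% were raised and 6.36% lowered, so this list does not stand out.

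**Figure D2:**
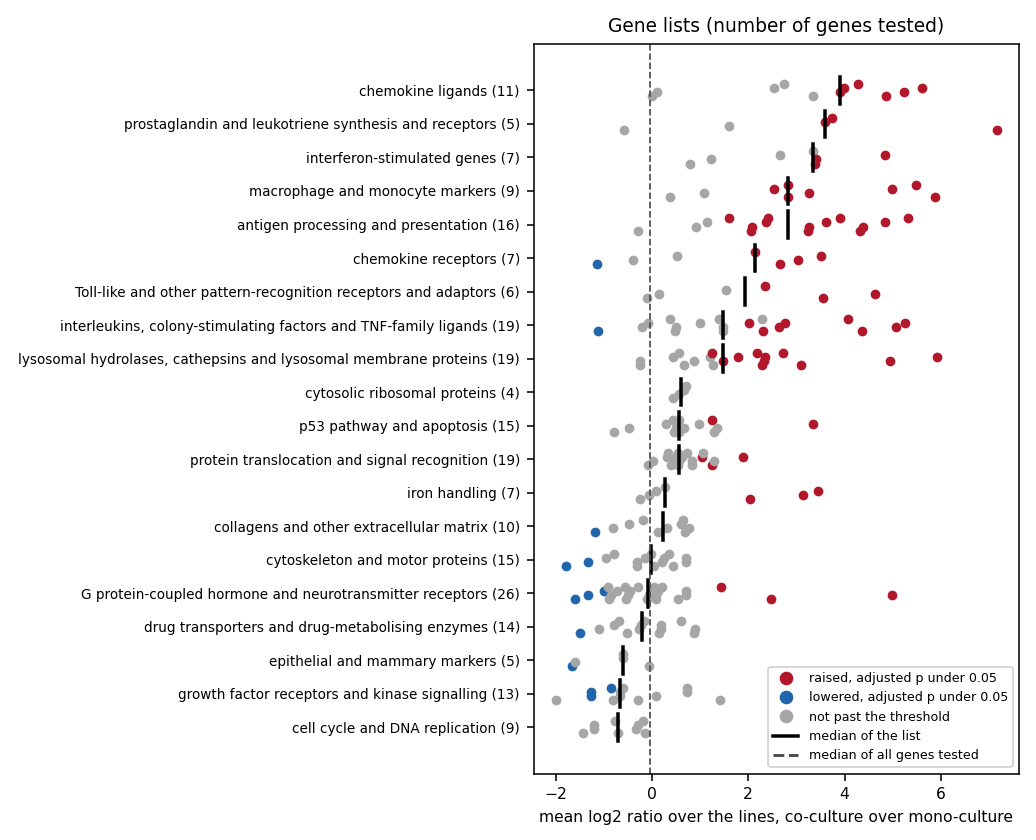
Mean log2 ratio over the lines (x axis) of each tested gene in 20 of the 40 gene lists (y axis, with the number of genes tested), coloured by whether the gene was raised, lowered or not past the threshold. Black bars are list medians and the dashed line is the median of all genes tested (-0.03). Among the lists plotted, chemokine ligands (median 3.91) lie highest and the cell cycle list (median -0.70) lowest, and the Wnt, Notch, Hedgehog and homeobox list, which is not plotted, has a median of -0.74.

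Down-regulated genes changed by less. The lowest mean among called genes with a symbol and at least 4 lines was that of SLC5A3. It encodes the myo-inositol transporter that cells use against osmotic stress, and its ratios were -2.68 in CMT-U27, -2.78 in CMT-U309, -2.25 in P114, -1.21 in CMT-W1 and -1.94 in CMT-W2 (mean -2.17 ± 0.64, limma adjusted p = 0.00916). MSX2, a homeobox gene of mammary and skeletal development, stood at -2.65, -2.81, -2.20, -1.22 and -1.41 (mean -2.06 ± 0.72). The tissue kallikrein KLK1 (-1.97 ± 0.96, with its other probe at 0.32) and SLCO1B3 (-1.92 ± 0.64) followed. CMT-U27 and CMT-U309 were lower than CMT-W1 and CMT-W2 for all 4 of these genes.

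DMD and UTRN, which encode dystrophin and its homologue utrophin, stood at -1.77 ± 0.80 and -1.73 ± 1.16 and were both lowered, although another probe stood at 0.70 for DMD and at -0.53 for UTRN. The sialomucin PODXL (-1.70 ± 0.59) and AMN, a subunit of the vitamin B12 receptor (-1.67 ± 0.70), were lowered as well. RPPH1, the RNA of ribonuclease P, was lowered evenly (-2.19, -2.38, -1.65, -1.57 and -1.10). BMP7, a growth factor of the TGF-beta family, had ratios of -2.21, -1.58, -1.14 and -2.11 in the 4 lines measured, without CMT-U309. CES1, a carboxylesterase, had the lowest mean of any gene with a symbol (-3.83 ± 1.71), but from 3 lines only (-3.80, -2.14 and -5.55), and was named after its values were seen.

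Some lists held lowered genes and no raised gene, where 6.36% of all genes with a symbol were lowered and 14.7% raised. These lists are small, so their counts are a description only. Of 13 growth factor receptors and kinase signalling genes, RET (-1.27 ± 0.52), PDGFRB and the cytokine signal inhibitor SOCS3 (-0.84 ± 0.29) were lowered. MET, the receptor of hepatocyte growth factor, stood at -4.17 in CMT-U27 and -0.12 in CMT-W1 and did not pass (-2.0 ± 1.66). Of 5 Wnt, Notch, Hedgehog and homeobox genes, MSX2 and the transcription factor SOX9 (-1.42 ± 0.76) were lowered. CAV1, the main protein of caveolae, was lowered (-2.47, -1.24, -0.29, -1.92 and -0.75, mean -1.34 ± 0.87), and its partner CAV2 did not pass (-0.79 ± 0.42). The matrix glycoprotein TNC (-1.18 ± 0.54) was the 1 gene lowered among 10 of the extracellular matrix, a share near that of all genes with a symbol. From a list that also held 1 raised gene, the endothelial nitric oxide synthase NOS3 was lowered (-1.43 ± 0.67), with probe means from -1.43 to -0.18.

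Among G protein-coupled receptors of hormones and transmitters, 3 were raised and 3 lowered of 26, against 14.7% and 6.36% of all genes with a symbol. Lowered were the calcitonin receptor CALCR (-1.59 ± 0.76), the serotonin receptor HTR1B (-1.33 ± 0.74) and the bradykinin receptor BDKRB2 (-1.0 ± 0.26). SULT1A1 (-1.48 ± 0.98), a sulfotransferase, was the 1 gene lowered among 14 of drug transport and metabolism. No gene passed among 6 nuclear hormone receptors and steroid enzymes, 4 of lipid metabolism, 6 of hypoxia and glycolysis, 5 of heat shock and stress, or 4 ribosomal proteins. The 4 genes commonly used as qPCR references did not pass either, but their median was 0.79. CMT-U27 had GAPDH at 1.82 and ACTB at 1.29 against -0.90 to 0.60 in the other lines. The log2 level of GUSB went from 7.26 to 11.09 in CMT-U27. HPRT1, a reference in the study's own qPCR, went from 10.31 to 12.28 in CMT-U27 and from 10.18 to 11.76 in CMT-U309. Both changed by less in the other lines.

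The processed signals allow the levels of both mono-cultures to be set side by side. The macrophage level was at least 4-fold the cancer cell level for 64.7% of the raised genes, for 0.436% of the lowered genes and for 10.3% of all genes. The median gap between both mono-cultures was 2.84 log2 units for raised genes and -0.69 for lowered genes, and between both populations of a co-culture it was 0.17 and -0.05. The gap and the ratio share the level of the mono-cultured cancer cells, so part of this relation is built in. Across 23115 genes the levels of cancer cells and macrophages correlated at 0.829 to 0.978 within a co-culture and at 0.534 to 0.762 between the mono-cultures of the same pairs. CMT-W1 had the lowest correlation in both.

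**Figure D3:**
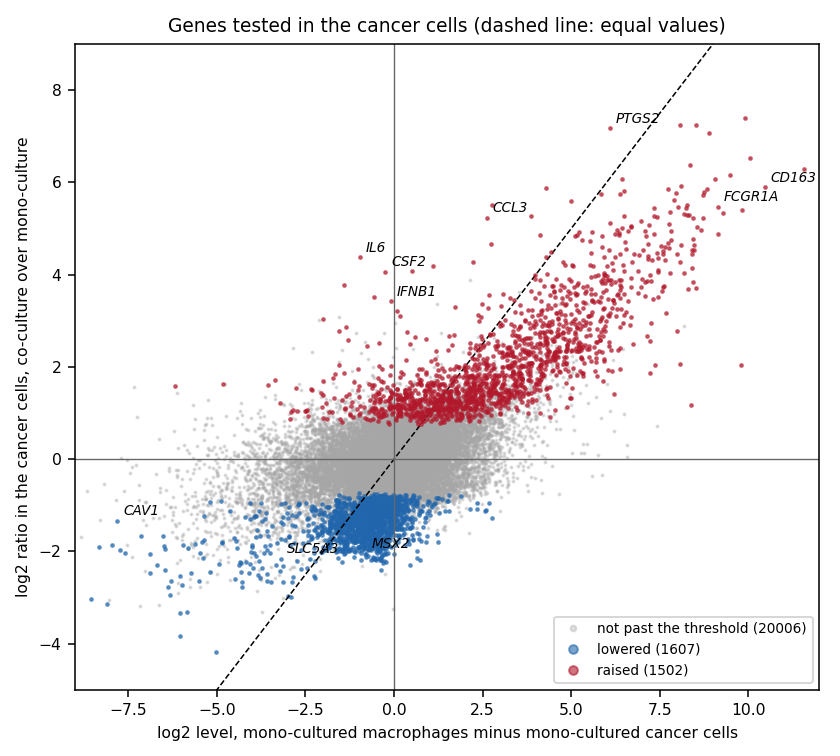
Log2 ratio in the cancer cells, co-culture over mono-culture (y axis), against the log2 level of mono-cultured macrophages minus that of mono-cultured cancer cells (x axis), 1 point per gene tested. The dashed line marks equal values. The 1502 raised genes (red) lie mostly on the right, with IL6, CSF2 and IFNB1 as exceptions near 0, and the 1607 lowered genes (blue) lie mostly left of 0.

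Some genes did not follow the macrophage level. In 168 raised genes (11.2%, against 1.58% of all genes) the mean level in co-cultured cancer cells was over 2-fold above that of both mono-cultures. Raised genes were chosen for a level above the mono-cultured cancer cells, so part of this excess over all genes is built in. Of these 168 genes, 13 had a symbol: the cytokines and chemokines CSF2, IL6, IL12B, IL33, CCL3, CCL4 and IFNB1, the receptor IL13RA2, PTGS2, the kinase NME2, the galactosyltransferase B4GALT4, the selenoprotein SELENOF and SRP54 of the signal recognition particle. By line, IL33 was above both mono-cultures in 3 of 5 lines, IL12B, CCL4, PTGS2 and B4GALT4 in 4, and the others in all 5. CSF2 had mean levels of 10.15 in mono-cultured and 14.21 in co-cultured cancer cells, and of 9.90 and 14.21 in macrophages. For IL6 these were 6.61 and 10.98, and 5.66 and 10.18. On average both populations of a co-culture thus stood alike for these cytokines, above either mono-culture.

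The level of these cytokines differed between lines more than between populations. CSF2 reached 18.73 in co-cultured CMT-W1 and 9.72 in co-cultured CMT-U27, and the macrophages sorted with them stood at 18.72 and 11.50. IL6 was highest in CMT-U309, at 14.37 in the cancer cells and 14.20 in the macrophages, and lowest in CMT-U27, at 6.33 and 6.25. The readings of the mono-cultured macrophages on the same arrays followed the same lines, with 12.41 beside CMT-W1 and 8.17 beside CMT-U27 for CSF2, and 9.37 beside CMT-U309 for IL6 against 4.30 to 5.13 beside the other lines. Their SD over the 5 array pairs was 2.05 for CSF2 and 2.10 for IL6, where the median gene had 0.19. The source of this relation was not tested.

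The opposite pattern held for 406 lowered genes (25.3%, against 2.4% of all), whose mean level in co-cultured cancer cells was over 2-fold below both mono-cultures. Part of this excess is built in as well, since lowered genes were chosen for a level below the mono-cultured cancer cells. Among the 11 of these 406 genes with a symbol were MSX2, NOS3, CALCR, RPPH1, the oxidase NOX3, the aldehyde dehydrogenase ALDH3A1 and VPS52, a tethering factor of the Golgi whose probes ran from -1.64 to 0.62. MSX2 stood at a mean of 12.32 in mono-cultured and 10.26 in co-cultured cancer cells, and at 11.50 and 10.29 in macrophages. RPPH1 likewise stood at 12.18 and 10.40, and at 11.84 and 10.22. The co-cultured cancer cells were below both mono-cultures in 4 of 5 lines for MSX2, and co-cultured CMT-W1 lay above the mono-cultured macrophages. CAV1 differed, with 14.24 and 12.90 in the cancer cells against 6.43 in mono-cultured and 12.27 in co-cultured macrophages. The readings of CAV1 in mono-cultured macrophages also varied (SD 2.48), with 9.74 beside P114 and 8.42 beside CMT-U309 against 4.16 to 5.03 beside the other lines. They were well above background on 5 of 10 arrays, and the source of this spread was not tested.

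**Figure D4:**
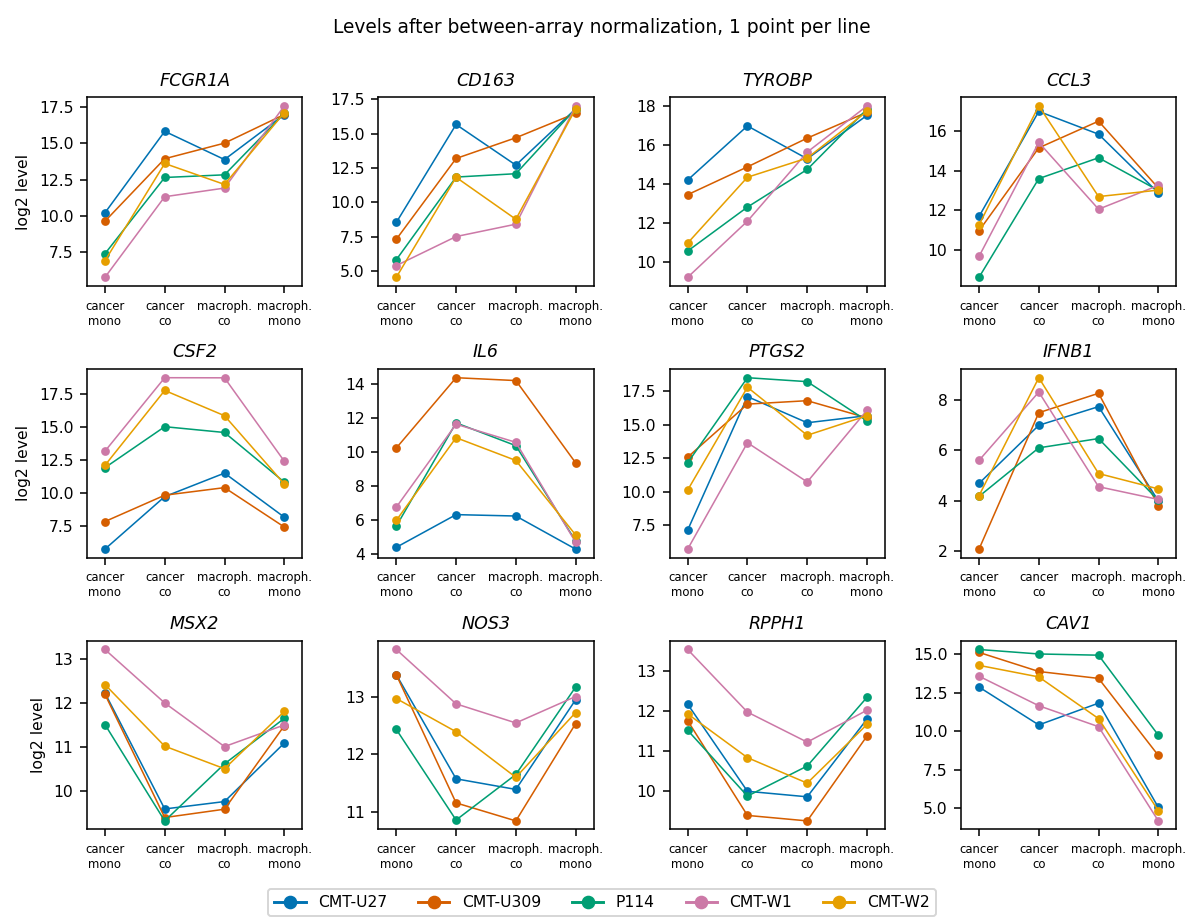
Log2 level (y axis, processed signal after normalization between arrays) of 12 genes in mono-cultured cancer cells, co-cultured cancer cells, co-cultured macrophages and mono-cultured macrophages (x axis), 1 coloured line of points per cancer line. FCGR1A, CD163 and TYROBP are highest in mono-cultured macrophages, CSF2 and IL6 are highest in both populations of the co-cultures, and the means of MSX2 and NOS3 are lowest there.

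The response differed from that of the macrophages of the same co-cultures for 7159 of 22448 genes (31.9%, limma on the difference of the ratios), and was higher in the cancer cells for 16.5% and lower for 15.4%. This fit took the 5 values of each population as separate groups and did not use the pairing by co-culture. Among raised genes with a value in both populations, 71.7% of 1493 had a called difference, and their median ratio was -0.63 in the macrophages. Among lowered genes it was 19.3% of 1563, with a median of -0.85 in the macrophages. The difference contains the ratio in the cancer cells, so genes picked for a high ratio were favoured. All 12 of the highest genes had a called difference, from 3.95 for CCL3 to 11.34 for CD163, whose ratio in the macrophages was -5.45. The level of CD163 was 6.31 in mono-cultured cancer cells and 16.78 in mono-cultured macrophages, and 11.33 in the macrophages of the co-cultures. CSF2 and IL6 rose in the cancer cells and had macrophage ratios of 4.31 and 4.53, with no called difference (-0.25 ± 0.81 and -0.16 ± 0.84, SE of the unpaired fit, n = 5 values per population). These SEs include the spread between lines. Of the 12 lowest genes, SLC5A3 (difference -3.39) and AMN (-1.6) had a called difference. For CXCL8 the difference of 7.11 was measured on another probe than the ratios above.

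The lines differed in the size of the response. Over 2-fold higher or lower were 22.5% and 22.0% of genes in CMT-U27 and 20.7% and 20.9% in CMT-U309, but 12.9% and 12% in P114, 11.3% and 9.12% in CMT-W1, and 11.8% and 9.45% in CMT-W2. Of the 1424 raised genes with 5 lines, CMT-U27 was the strongest line for 50.0% and CMT-W1 the weakest for 41.9%. Of 1443 lowered genes CMT-U309 was the strongest for 50.6%, and CMT-W1 and CMT-W2 were the weakest for 46.4% and 37.5%. The median ratio of raised genes was 2.43 in CMT-U27, 1.73 in CMT-U309, 1.53 in P114, 1.29 in CMT-W1 and 1.87 in CMT-W2. The macrophage markers had medians of 5.13, 3.11, 3.08, 1.66 and 3.38 in these lines, which is the same order. Part of the raised genes are these markers, and whether the order has a common source was not tested.

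Cell cycle genes had opposite signs in different lines. None of 9 cell cycle genes passed, and the median of the list was -2.56 in CMT-U27, 1.62 in CMT-U309, 0.48 in P114, -0.64 in CMT-W1 and -1.23 in CMT-W2. ASPM, a spindle protein of dividing cells, stood at -6.35, 3.01, 0.48, -0.58 and -2.58 (mean -1.20 ± 3.51). CMT-U27 had the lowest value and CMT-U309 the highest, so the mean hides opposite signs. The G1 cyclin CCND1 was below 0 in 5 of 5 lines and did not pass (-1.20 ± 0.86, limma adjusted p = 0.0561).

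Outside the cell cycle, the collagen gene COL1A2 was low in CMT-U27 (-4.55) and CMT-W1 (-3.16), high in CMT-U309 (3.29) and near 0 in P114 and CMT-W2. The desmosomal cadherin DSG3 stood at -6.22 in CMT-U309 and 1.58 in CMT-U27. CXCL10, a chemokine induced by interferon, was high in P114 (6.91), CMT-W2 (5.71) and CMT-U309 (4.22) and near 0 in CMT-U27 (-0.30) and CMT-W1 (0.23). With 1 pair of cultures per line, a property of the line and chance between cultures cannot be told apart.

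**Figure D5:**
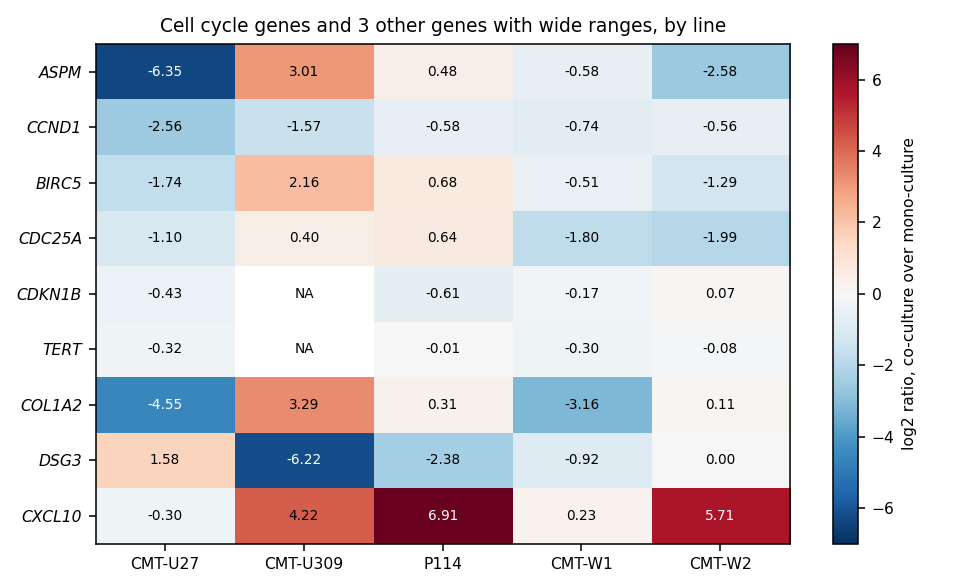
Log2 ratio, co-culture over mono-culture, in each cancer line (columns) for 6 of the 9 tested cell cycle genes and for COL1A2, DSG3 and CXCL10 (list members and genes in rows). Blue is lower and red higher after co-culture, the printed numbers are the ratios and NA marks a line without a value. CMT-U27 is negative for all 6 cell cycle genes shown, from -0.32 for TERT to -6.35 for ASPM.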

How the data were processed

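RNA of 10 dye-swap pairs was measured on canine Agilent arrays, 5 pairs for the cancer cells. The authors deposited Feature Extraction output (version 10.7.3.1, per the file headers) with linear intensity columns (median, background and processed signals), a log10 ratio of Cy5 over Cy3 after background correction and dye normalization, and marks for spots above background, saturated or outlying (0 or 1). The deposited value table holds the same log10 ratio up to its sign. Ratios were turned to co-culture over mono-culture by the labelled dyes, put on the log2 scale and averaged per line without outlier spots. A line that was dim in both cultures kept its ratio. The brightest probe stood for a gene. Symbols came from RefSeq (UU_Cfam_GSD_1.0) for 1648 of 43603 probes. Since the design of the array follows another build, coordinates were left out.

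limma 3.58.1 (R 4.3.3) fitted the mean over lines, with Benjamini-Hochberg adjustment over 23115 genes, and the difference between populations. p-values measure the spread between 5 lines, each with 1 pair of cultures as far as stated. Levels are processed signals after Aquantile normalization. The scripts were tested on simulated data. Python 3.11.15, pandas 2.3.3, numpy 2.4.6 and matplotlib 3.10.9 made tables and figures.

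Members and lists were chosen with earlier results of these data known. Named genes were the 12 highest and 12 lowest called symbols of one direction in at least 4 lines, up to 6 per list by smallest adjusted p, the study's listed genes, and the 5 with the widest range over lines. List counts cover every tested member, a few other members were named to complete them, and genes outside the lists were named after their values were seen. A few genes that these rules name are not reported here. The cancer cells and macrophages of a co-culture come from one flask with one line and are therefore paired. Their deviations from the group means correlated at 0.08, 0.50, 0.22, 0.28 and 0.10 in the order used above. The main fit of the difference between populations did not use this pairing, and the alternative with the co-culture as a replicate block did.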

Additional observations from a re-analysis of the deposited data

Results flagged for a closer look

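One line lay far from the other 4, by Dixon's test at the 95% level, for 11 of 177 named genes with 5 lines, where chance gives about 1 in 20. The count is near that share, so the 11 genes are listed as a description only. In CMT-U27 these were the solute carrier SLC46A2 (log2 ratio 6.41), FTL (4.56), GAPDH (1.82) and ACTB (1.29), all on the high side. In CMT-U309 the coagulation inhibitor TFPI (3.46), the neurotrophin BDNF (2.28) and the collagen gene COL1A1 (1.40) were high, and the tight junction gene OCLN (-3.39) was low. In CMT-W1 IL1A (2.36), CD80 (2.13) and CD163 (2.11) were low, though still raised.

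The response of the cancer cells minus that of the macrophages passed the threshold for all 12 of the highest genes and for 2 of the 12 lowest, against 31.9% of all genes and 71.7% of raised genes. The highest genes were picked for a high ratio in the cancer cells, which is part of this difference, so the count is a description. On the log2 scale the difference was 11.34 for CD163, 10.71 for C5AR1, 9.44 for FCGR1A, 8.85 for CTSS, 8.06 for CTSK, 7.79 for PTGS2, 7.30 for CD80, 7.14 for IL1A, 7.11 for both CXCL8 and IL1B, 6.72 for CCL2 and 3.95 for CCL3. For SLC5A3 it was -3.39 and for AMN -1.60.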

How the results depend on the processing

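The 93 called named genes kept their direction under every alternative in which they were tested, and their calls were kept by 93 with each array centred, 90 with Cy3 arrays only, 74 with Cy5 arrays only, 65 without a filter, 11 with normexp and loess (adjusted p 0.0335 to 0.2057) and 0 with the methods' t-test. Raised and lowered genes numbered 756 and 1036 without a filter, 47 and 10 with normexp and loess, 3470 and 3980 with the slide as a random block (consensus correlation -0.407) and 7 and 0 with the methods' t-test on levels after Benjamini-Hochberg adjustment (433 and 435 at an unadjusted p under 0.01, 1118 and 1232 under 0.05), and 890 were lowered on Cy5 arrays alone. Counts with 1 line left out ran from 470 (P114) to 1227 (CMT-W1) for raised and from 87 (P114) to 1237 (CMT-W1) for lowered genes; leaving out CMT-U27 gave 621 and 310, CMT-U309 872 and 775, and CMT-W2 813 and 910. Genes at least 3-fold on each array, 190 in all, numbered 24 with normexp, 320 on Cy3 arrays alone, 6 with the t-test, 322 with lines at background left out (an alternative chosen after seeing the data) and 196 to 375 with a line left out (375 without CMT-W1). The difference between populations was called for 4616 genes when all 5 lines had to be above background, for 4516 (CMT-U27) to 6360 (CMT-W1) with a line left out, 4542 without P114, and for 7815 with the co-culture as a replicate block, which paired the populations. The cause of these shifts was not tested. Precision rests on 5 lines, each with 1 pair of cultures as far as stated, and on signal over background, which was low in the mono-cultures for several raised genes.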
